A study of Mus musculus with 384 samples.

Results

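The genes described here are 10 genes of the Nrf2 and glutathione defence system of mouse mammary epithelium, out of 49585 gene rows in the count table. They are the transcription factor Nfe2l2 (the gene of Nrf2) and the enzymes and redox proteins Gsr, Pir, Ggt1, Nqo1, Gclm, Gclc, Txnrd1, Srxn1 and Hmox1, matched by symbol through their Ensembl gene identifiers. All 10 were found in the table and all 10 passed the filter on low values. The genes were selected on their measured levels in these same cells, so those levels and ratios are given as a description, without a test.

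Nrf2 is a transcription factor that the adaptor Keap1 marks for degradation in unstressed cells. Oxidants and electrophiles modify Keap1, and Nrf2 then accumulates, pairs with small Maf proteins and binds antioxidant response elements near genes for glutathione synthesis, thioredoxin reduction, quinone reduction and heme breakdown. Glutathione is the main small thiol of the cytosol, and in the mammary gland its supply has been studied both in milk-secreting epithelium and in breast tumours.

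Each library came from a well of a 384-well plate processed with Smart-seq2, a full-length RNA-seq method for single cells, after sorting of DAPI-negative, CD45-, CD31- and CD140a-, Tomato+ mammary epithelial cells that were also stained for CD24, CD29 and EpCAM. The groups used were 92 ablated hybrid, 91 ablated luminal, 91 ablated basal, 50 WT luminal and 50 WT basal single-cell wells, and 1 multicell well of each kind. All groups, WT included, carried K8rtta, TetO-DTA, K5CreER and Rosa-Tomato on a mixed background. In this strain the Krt8 promoter drives the doxycycline-dependent activator of diphtheria toxin A, and the Krt5 promoter drives the Cre that switches on Tomato. Ablated glands were taken 1 week after intraductal injection of 0.2 mg doxycycline, whereas no injection is recorded in the labels of WT glands. The effects of cell loss, of the injection, of doxycycline itself and of the animal cannot be told apart. The labels do not give age, sex, the animal of a cell, the hybrid gate or the number of cells in a multicell well. Groups filled successive plate lines, and for 3 of the 5 comparisons 1 line held cells of both groups, whose values are given beside those comparisons. For ablated luminal against WT luminal and ablated hybrid against ablated basal cells no line held both, and position on the plate cannot be told apart from group.

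Wells were kept that had 100000 or more reads in genes, 1000 or more genes, and a mitochondrial share of no more than 20%, which left 85 ablated hybrid, 76 ablated luminal, 71 ablated basal, 43 WT luminal and 44 WT basal cells. A level is the reads of a gene summed over the kept cells of a group, for every 1000000 gene reads of those cells (CPM). A share is the percentage of kept cells with at least 5 reads of the gene after each cell was thinned to 100000 reads, with an exact Clopper-Pearson 95% interval over cells. A log2 ratio compares levels that each had 10 CPM added, which understates the change of low genes. Since no animal is named, every group counted as 1 sample and no p-value was computed, and no difference could be set against a spread between animals. Exact Poisson 95% intervals of the 48 member levels at 10 CPM or more reached at most 9.33% of the level to either side. They cover counting error only, because PCR copies were not collapsed by molecular identifiers and so are not separate molecules.

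Depth ranged from 118310 to 3835005 gene reads per kept cell, and the group medians from 677373 in ablated basal to 1372883 in WT luminal cells, and the 5 negative control wells held 7930 to 13572 reads. The labels of the WT groups went with their markers. The 8 basal markers summed to 166 CPM in WT luminal and 20494 CPM in WT basal cells, and the 11 luminal markers to 26097 CPM in WT luminal and 976 CPM in WT basal cells. Ablated hybrid cells held 17222 CPM of the basal and 12511 CPM of the luminal markers, and ablated basal cells 32326 CPM and 891 CPM. Ablated luminal cells held 20870 CPM of the luminal markers and also 6382 CPM of the basal markers, 7 of which were at least 2-fold above WT luminal cells. The 6 immune markers summed to 0.065 to 27.6 CPM per group, with Adgre1 at 0 in every group, and the 4 endothelial markers to at most 7.39 CPM, with all 4 at 0 in both WT groups. The 4 adipocyte markers reached at most 0.172 CPM and the 4 pericyte markers 7.2 to 37.3 CPM. The 6 fibroblast markers were present at 522 CPM in ablated hybrid, 92.6 CPM in ablated luminal, 1954 CPM in ablated basal, 577 CPM in WT luminal and 889 CPM in WT basal cells, with Lum at 0 in all groups. Their part in the results below was not tested.

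Expression of the defence genes was patchy from cell to cell. Over single cells, 40 pairs of neighbouring groups stood next to each other in the order of levels of the 10 genes. Level intervals overlapped in 5 of these pairs, and share intervals overlapped in 34. Many levels rested on few cells, and in several groups a single cell held most reads of a gene. Such values are given below with the share of reads in the highest cell.

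**Figure D1:**
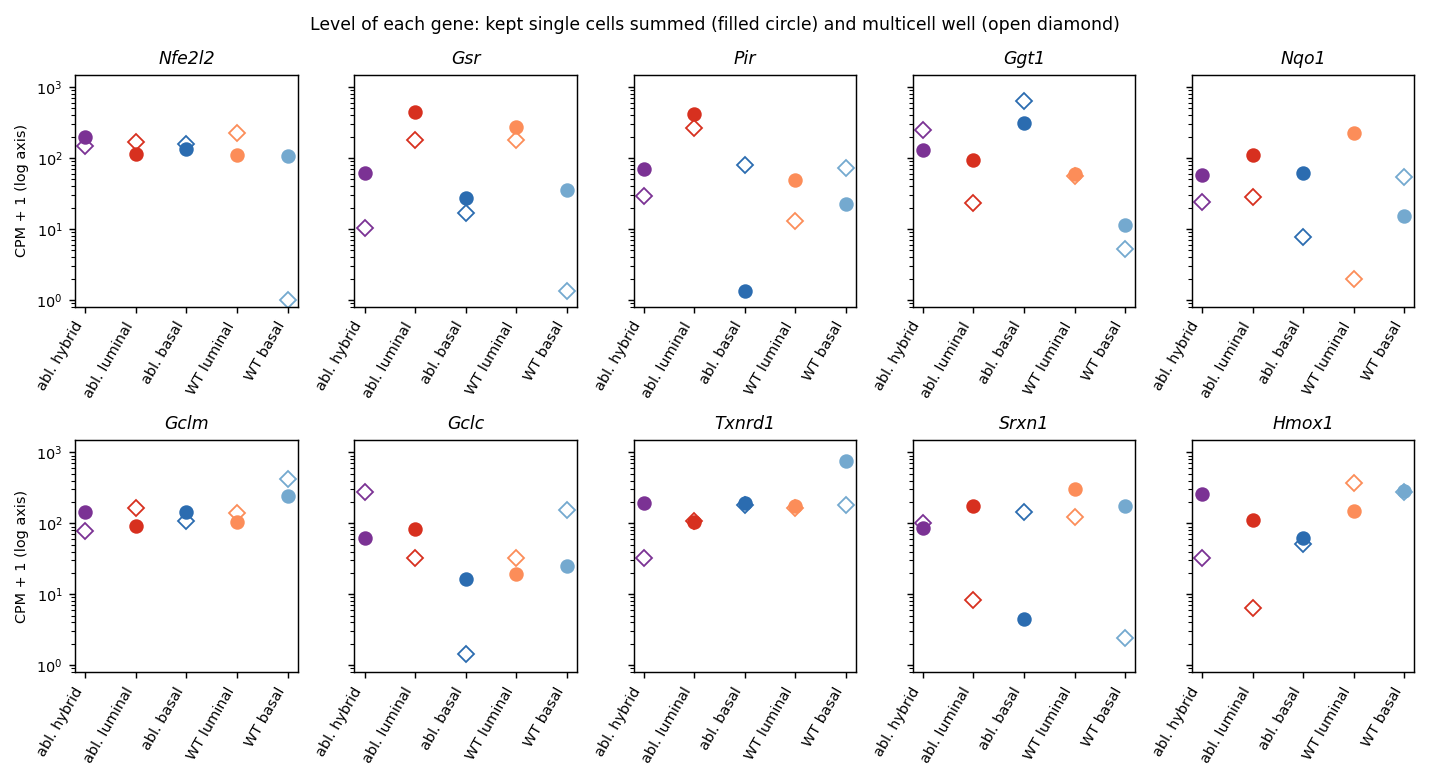
Level of each of the 10 genes in CPM + 1 on a log axis, in the 5 groups, as reads summed over kept single cells (filled circles) and in the multicell well of the same group (open diamonds). Nfe2l2 spans 107 to 196 CPM over single cells, while Pir spans 0.339 to 418 CPM.

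Letters of the antioxidant response element were looked up in the promoter windows of RefSeq on GRCm38.p6, each running from 250 bases before to 50 after an annotated start. Of the 10 genes 7 had an entry, with 12 start sites between them, and Gsr, Gclc and Hmox1 had none. The core TGACNNNGC, searched on both strands, was found at 8 of these start sites, in 6 genes, and at 12.4% of all 32851 windows of this length. The AP-1 word TGANTCA, which reads the same on both strands and can overlap the core, was found in 7.81% of windows. Shown here are 8 matches with up to 10 flanking bases on the strand of the gene, the core in capitals. These letters are only a part of the antioxidant response element that Nrf2 binds.
Nfe2l2: tcagcccaccTGACTCCGCcatgccccgg
Pir: gcatagagagGCTGAGTCActcccccaaa
Ggt1, start 1: cttgggcatcTGACACAGC
Ggt1, start 2: gaagggaggaGCTGGGTCActgctgggga
Ggt1, start 3: gtcacaagccTGACGCTGCgcctccttgc
Gclm: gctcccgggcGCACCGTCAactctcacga
Txnrd1, start 2: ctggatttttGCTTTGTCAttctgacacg
Srxn1: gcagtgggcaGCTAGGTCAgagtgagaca
Reading from the start, the core began 240 bases before it in Nfe2l2, 134 before it in Gclm, 92 before it in Txnrd1, and 36 and 83 before starts 2 and 3 of Ggt1. In Srxn1 it began 28 bases after the start and at start 1 of Ggt1 41 bases after it. The match of Pir printed here began 214 bases before the start, and the AP-1 word also lies within it. The window of Nqo1 held no match of these letters.

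The 250 bases before the start are printed for Pir and Srxn1, because these members were close to absent from ablated basal cells in the single-cell wells. Capitals mark the core or the AP-1 word. The Pir stretch is chrX:164269181-164269430 on the plus strand, and the Srxn1 stretch is chr2:152105274-152105523 on the plus strand.
Pir: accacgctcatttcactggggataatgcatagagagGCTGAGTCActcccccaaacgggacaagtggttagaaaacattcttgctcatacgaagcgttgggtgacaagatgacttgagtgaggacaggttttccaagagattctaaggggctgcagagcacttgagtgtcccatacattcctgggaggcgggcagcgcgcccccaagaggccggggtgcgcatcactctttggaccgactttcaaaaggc
Srxn1: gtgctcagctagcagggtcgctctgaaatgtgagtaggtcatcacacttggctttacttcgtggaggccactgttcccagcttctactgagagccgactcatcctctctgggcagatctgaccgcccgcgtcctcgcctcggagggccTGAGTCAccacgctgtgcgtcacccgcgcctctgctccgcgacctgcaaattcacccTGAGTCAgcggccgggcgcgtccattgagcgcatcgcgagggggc
Srxn1 held the AP-1 word 102 and 45 bases before its start. These matches are a description of letters and say nothing of whether a factor was bound.

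The regulator itself, Nfe2l2 (ENSMUSG00000015839.6, GRCm38 chromosome 2, 75675513 to 75704641, minus strand), had the flattest levels of the set. It stood at 196 CPM in ablated hybrid, 111 CPM in ablated luminal, 131 CPM in ablated basal, 109 CPM in WT luminal and 107 CPM in WT basal cells, a range of 1.82-fold. Ablated hybrid cells were highest, and the intervals of ablated luminal, WT luminal and WT basal levels overlapped from one neighbour to the next. Shares differed more than levels. Nfe2l2 was detected in 57.6% (46.4 to 68.3) of ablated hybrid, 36.8% (26.1 to 48.7) of ablated luminal, 19.7% (11.2 to 30.9) of ablated basal, 27.9% (15.3 to 43.7) of WT luminal and 13.6% (5.17 to 27.4) of WT basal cells. The 5 highest cells held 32.5% of its reads in ablated hybrid cells, against 90.04% in WT basal cells. The multicell wells gave 147 CPM for ablated hybrid, 169 CPM for ablated luminal, 154 CPM for ablated basal and 225 CPM for WT luminal cells. The WT basal multicell well had 0 reads among 2824040, which allows a level of up to 1.06 CPM (3 reads). In multicell wells, fewer cells with a transcript and less RNA per cell cannot be told apart.

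Glutathione synthesis starts with glutamate-cysteine ligase, whose catalytic subunit is Gclc and whose modifier subunit is Gclm. Gclc (ENSMUSG00000032350.9, chromosome 9, 77754535 to 77794485) was higher in ablated luminal and ablated hybrid cells, at 80.8 and 60.3 CPM, than in ablated basal, WT luminal and WT basal cells, at 15.6, 18.2 and 24.1 CPM. Detection reached 32.9% (22.5 to 44.6) of ablated luminal and 22.4% (14.03 to 32.7) of ablated hybrid cells, and 4.23% (0.880 to 11.9) of ablated basal, 9.30% (2.59 to 22.1) of WT luminal and 6.82% (1.43 to 18.7) of WT basal cells. These last 3 groups had 3, 4 and 3 detecting cells, and a single cell held 50.8% of the reads in ablated basal and 55.9% in WT basal cells. Multicell wells ordered the groups otherwise, with 278 CPM in ablated hybrid, 31.3 CPM in ablated luminal, 0.440 CPM in ablated basal, 31.8 CPM in WT luminal and 153 CPM in WT basal wells.

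Gclm (ENSMUSG00000028124.15, chromosome 3, 122245557 to 122270732) ran in another order. Its level was 142 CPM in ablated hybrid, 91.5 CPM in ablated luminal, 145 CPM in ablated basal, 104 CPM in WT luminal and 243 CPM in WT basal cells. Among multicell wells it was 77.98 CPM in ablated hybrid, 161 CPM in ablated luminal, 107 CPM in ablated basal, 137 CPM in WT luminal and 422 CPM in WT basal wells, so that WT basal was the highest in both kinds of well. The number of cells with Gclm did not follow the level. Cells with Gclm made up 57.6% (46.4 to 68.3) of ablated hybrid cells and 31.8% (18.6 to 47.6) of WT basal cells. Over 540 of its bases Gclm shares exon sequence with the gene models Gm17494 and Gm6061, which together had 1276 reads in all wells, and the strand setting of the counting is not given.

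Gsr, glutathione reductase, returns oxidised glutathione to its reduced form with NADPH, and was the clearest luminal gene of the set. Gsr (ENSMUSG00000031584.16, chromosome 8, 33652523 to 33698163) stood at 59.6 CPM in ablated hybrid, 437 CPM in ablated luminal, 26.2 CPM in ablated basal, 273 CPM in WT luminal and 34.1 CPM in WT basal cells. The share of detecting cells was 32.9% (23.1 to 43.98) in ablated hybrid, 67.1% (55.4 to 77.5) in ablated luminal, 7.04% (2.33 to 15.7) in ablated basal, 44.2% (29.1 to 60.1) in WT luminal and 4.55% (0.555 to 15.5) in WT basal cells. Both luminal groups stood above both basal groups in level and share, and hybrid cells lay between them. In WT basal cells 1 cell held 88.8% of the reads. The multicell wells showed the same split of luminal and basal groups, with the hybrid well below both ablated wells, at 9.29 CPM in ablated hybrid, 181 CPM in ablated luminal, 15.8 CPM in ablated basal, 176 CPM in WT luminal and 0.354 CPM (1 read) in WT basal wells.

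Ggt1, gamma-glutamyltransferase 1, sits on the cell surface and cleaves extracellular glutathione so that its amino acids can be taken up again. Ggt1 (ENSMUSG00000006345.10, chromosome 10, 75561604 to 75586200) was at 129 CPM in ablated hybrid, 92.5 CPM in ablated luminal, 310.2 CPM in ablated basal, 58.7 CPM in WT luminal and 10.5 CPM in WT basal cells. Ggt1 was found in 50.6% (39.5 to 61.6) of ablated hybrid, 17.1% (9.43 to 27.5) of ablated luminal, 35.2% (24.2 to 47.5) of ablated basal, 11.6% (3.89 to 25.1) of WT luminal and 4.55% (0.555 to 15.5) of WT basal cells. The detection minimum was reached by 25 of 71 ablated basal cells, against 2 of 44 WT basal cells, where 1 cell held 57.6% of the reads. Over plate lines with at least 5 kept cells, the level ranged from 68.1 to 466.3 CPM on the 4 ablated basal lines and from 0.540 to 18.3 CPM on the 3 WT basal lines. The multicell wells held 643 CPM in the ablated basal and 4.25 CPM in the WT basal well, the same order as in single cells, and 251 CPM in the ablated hybrid, 22.2 CPM in the ablated luminal and 54.7 CPM in the WT luminal well.

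Txnrd1, cytosolic thioredoxin reductase, and Srxn1, sulfiredoxin, which repairs over-oxidised peroxiredoxins, belong to the thioredoxin arm. Txnrd1 (ENSMUSG00000020250.9, chromosome 10, 82833951 to 82897712) stood at 191 CPM in ablated hybrid, 102 CPM in ablated luminal, 192 CPM in ablated basal, 173 CPM in WT luminal and 762 CPM in WT basal cells. Cells detecting it made up 32.4% (21.8 to 44.5) of ablated basal and 52.3% (36.7 to 67.5) of WT basal cells, and these intervals overlap. The highest cell held 25.7% and 30.8% of the reads of these groups. Shares were 55.3% (44.1 to 66.1) in ablated hybrid, 46.1% (34.5 to 57.9) in ablated luminal and 34.9% (21.01 to 50.9) in WT luminal cells. On the 4 ablated basal plate lines the level of Txnrd1 ranged from 88.2 to 282 CPM, and on the 3 WT basal lines from 680.4 to 804 CPM. The multicell wells did not show this gap, with 180.3 CPM in the ablated basal and 177 CPM in the WT basal well. The remaining wells held 31.5 CPM (ablated hybrid), 106.5 CPM (ablated luminal) and 164 CPM (WT luminal).

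Srxn1 (ENSMUSG00000032802.8, chromosome 2, 152105516 to 152111376) was at 86.2 CPM in ablated hybrid, 176 CPM in ablated luminal, 3.48 CPM in ablated basal, 305 CPM in WT luminal and 175 CPM in WT basal cells. These levels came from very different numbers of cells. It was detected in 22 of 85 ablated hybrid, 20 of 76 ablated luminal, 1 of 71 ablated basal, 8 of 43 WT luminal cells and 3 of 44 WT basal cells, that is in 25.9% (16.98 to 36.5), 26.3% (16.9 to 37.7), 1.41% (0.0357 to 7.60), 18.6% (8.39 to 33.4) and 6.82% (1.43 to 18.7). A single cell held 80.5% of the reads in ablated basal, 55.01% in WT luminal and 59.4% in WT basal cells. The mean of 2.89 reads per ablated basal cell lay between the means per negative control well with all 5 wells (3.40 reads) and without the well that held 11 reads (1.5). The multicell wells turned the basal groups round, with 143 CPM in the ablated basal and 1.42 CPM (4 reads) in the WT basal well, and held 100.2 CPM in the ablated hybrid, 7.40 CPM in the ablated luminal and 123 CPM in the WT luminal well.

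Nqo1, a quinone reductase and a common readout of Nrf2 activity, had its highest single-cell level in WT luminal cells. Nqo1 (ENSMUSG00000003849.8, chromosome 8, 107388225 to 107403206, minus strand) stood at 56.2 CPM in ablated hybrid, 108 CPM in ablated luminal, 59.9 CPM in ablated basal, 226 CPM in WT luminal and 14.3 CPM in WT basal cells. Detecting cells made up 27.1% (17.99 to 37.8) of ablated hybrid, 26.3% (16.9 to 37.7) of ablated luminal, 11.3% (4.99 to 21) of ablated basal, 34.9% (21.01 to 50.9) of WT luminal and 2.27% (0.0575 to 12.02) of WT basal cells. The intervals of ablated hybrid, ablated luminal and WT luminal cells overlap. The WT basal share was 1 cell, which held 91.9% of the group's reads. The WT luminal multicell well went against its single cells, with 1 read of Nqo1 (0.995 CPM), against 150 reads (53.1 CPM) in the WT basal well. The ablated wells held 22.6 CPM (hybrid), 27.6 CPM (luminal) and 6.60 CPM (basal).

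Hmox1, heme oxygenase 1, breaks down heme and is induced by oxidants and heme. Hmox1 (ENSMUSG00000005413.8, chromosome 8, 75093621 to 75100589) was at 261 CPM in ablated hybrid, 111 CPM in ablated luminal, 60.6 CPM in ablated basal, 146 CPM in WT luminal and 280.4 CPM in WT basal cells. It was detected in 30.6% (21.05 to 41.5) of ablated hybrid, 21.1% (12.5 to 31.9) of ablated luminal, 12.7% (5.96 to 22.7) of ablated basal, 23.3% (11.8 to 38.6) of WT luminal and 20.5% (9.80 to 35.3) of WT basal cells. All of these share intervals overlap. Reads were concentrated, with 62.3% in the highest WT luminal cell and 50.6% in the highest ablated basal cell. The multicell wells held 31.5 CPM for ablated hybrid, 5.41 CPM for ablated luminal, 49.3 CPM for ablated basal, 365 CPM for WT luminal and 271 CPM for WT basal cells, so that both basal values lay close to their single-cell levels.

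Pir encodes pirin, an iron-binding nuclear protein known from human cells as an Nrf2 target. Pir (ENSMUSG00000031379.13, chromosome X, 164269371 to 164373011) had the widest range of the set, with 69.1 CPM in ablated hybrid, 418 CPM in ablated luminal, 0.339 CPM in ablated basal, 48 CPM in WT luminal and 21.6 CPM in WT basal cells. Pirin transcripts were detected in 23.5% (15.004 to 33.97) of ablated hybrid and 43.4% (32.1 to 55.3) of ablated luminal cells. In WT luminal cells it was detected in 2 of 43 cells and in WT basal cells in 1 of 44, and the highest cell held 62.1% and 97.4% of the reads of these groups. No ablated basal cell detected it (0 of 71). The exact interval of that share ends at 5.06%, and a limit of 3 cells would be 4.23%. The 20 reads in that group came to 0.282 per cell, against 0.400 per negative control well, where both reads came from 1 of the 5 wells and the others held 0. The ablated basal multicell well nevertheless held 176 reads (77.4 CPM), close to the WT basal well with 201 reads (71.2 CPM), and the others held 27.9 CPM (ablated hybrid), 261 CPM (ablated luminal) and 11.9 CPM (WT luminal).

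**Figure D2:**
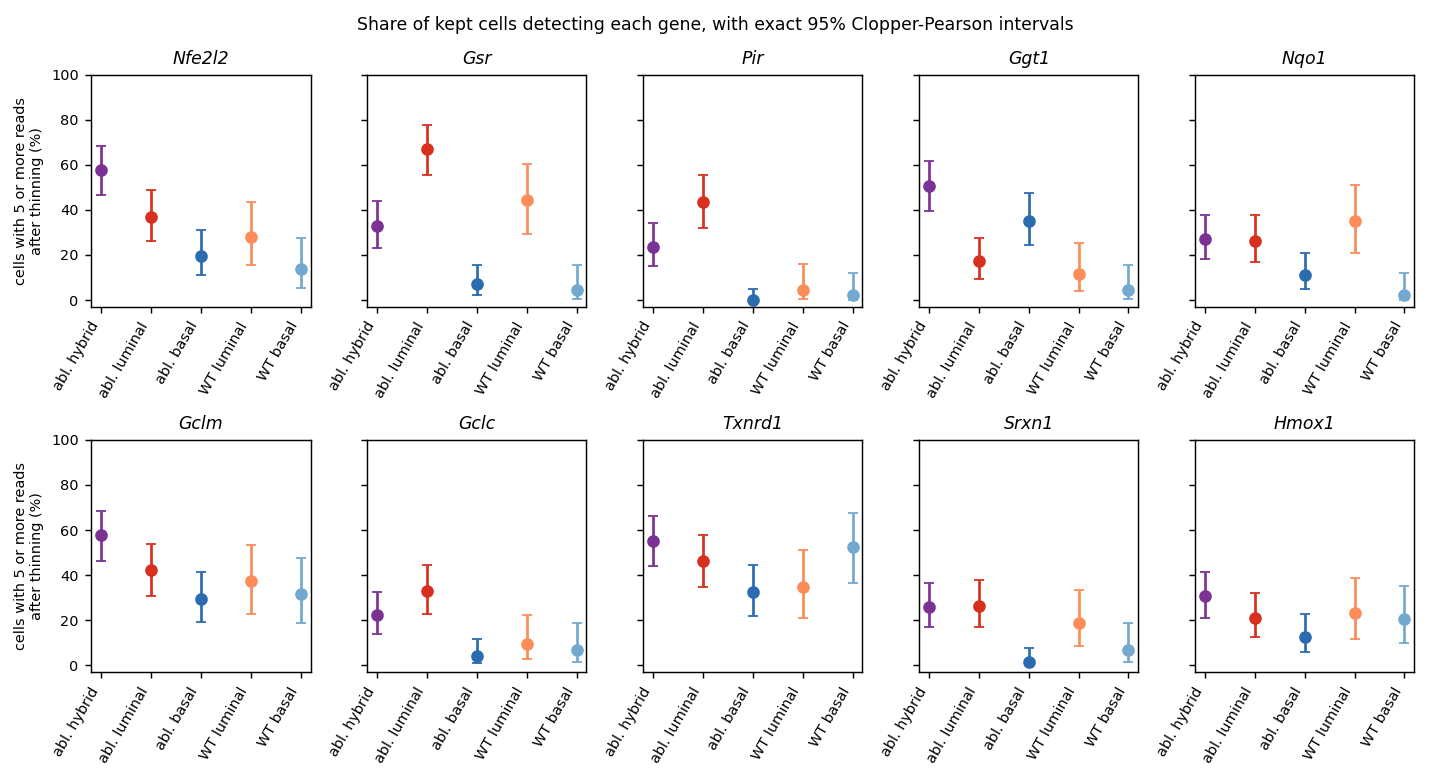
Share of kept cells, in percent, with at least 5 reads of each gene after thinning to 100000 reads, in the 5 groups, with exact 95% Clopper-Pearson intervals. Gsr separates ablated luminal (67.1%) from ablated basal cells (7.04%), while the intervals of Hmox1 overlap in all groups.

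Levels were also divided by the kilobases of exon of a gene, taken over all its annotated transcripts together. This length can exceed that of the transcripts present in these cells, so the order of genes depends on it. On this measure the highest member differed by group. Hmox1 led in ablated hybrid cells with 149 CPM per kilobase, followed by Nfe2l2 with 51.5 CPM per kilobase. Gsr led in ablated luminal cells with 159 CPM per kilobase, Ggt1 in ablated basal cells with 90.9 and Nqo1 in WT luminal cells with 146. In WT basal cells Hmox1 reached 160.1 and Txnrd1 107 CPM per kilobase. Levels of the glutamate-cysteine ligase subunits ran from 4.16 to 21.4 CPM per kilobase for Gclc and from 14.5 to 38.6 CPM per kilobase for Gclm.

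**Figure D3:**
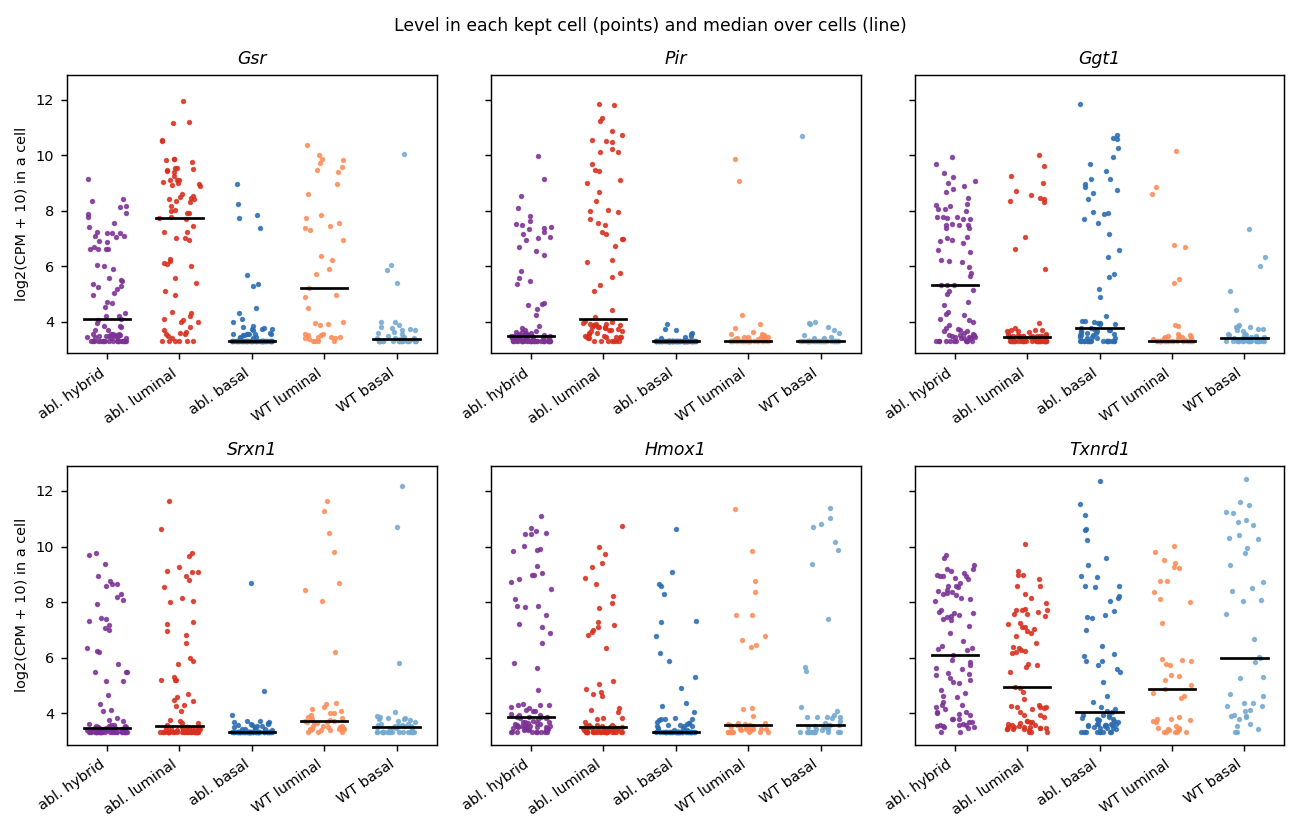
Level in every kept cell as log2(CPM + 10) for Gsr, Pir, Ggt1, Srxn1, Hmox1 and Txnrd1, with 1 point per cell and a line at the median over the cells of each group. The median of Gsr lies at 206 CPM in ablated luminal cells and at 0 CPM in the ablated basal group. The WT basal level of Pir comes from 1 cell.

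The plot of read concentration shows how far each level depends on few cells. The 5 highest cells held 26.1% to 58.7% of the reads of every member in ablated hybrid cells. In WT luminal cells they held 59.001% to 99.4%, and in WT basal cells 61.8% to 99.4%.

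**Figure D4:**
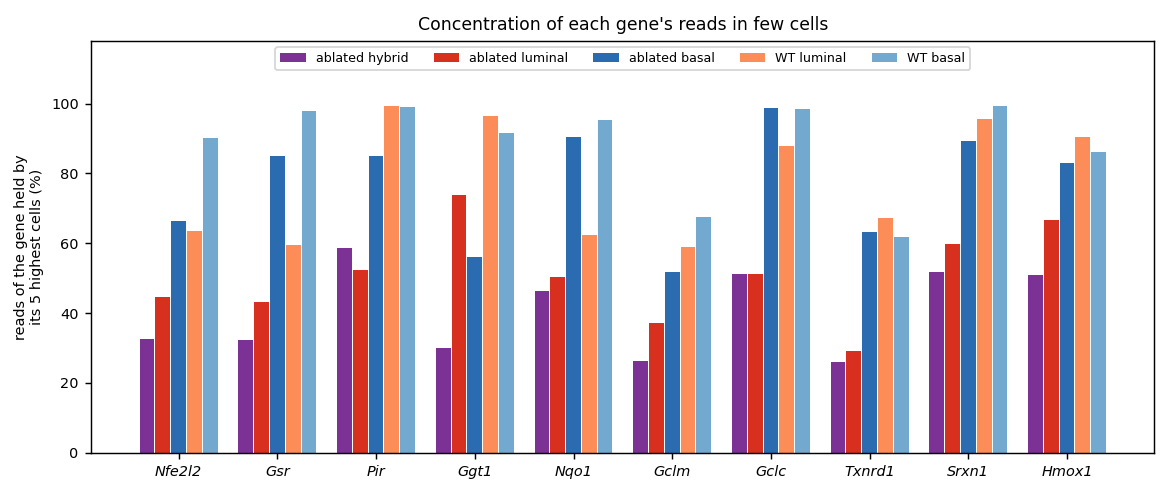
Percentage of a gene's reads held by its 5 highest cells, for each of the 10 genes and 5 groups. The bars of ablated hybrid cells stay at or below 58.7%, while those of WT basal cells reach 99.4% for Srxn1.

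The comparison of WT luminal with WT basal cells asks how the defence genes divide between the lineages without ablation. The 5 comparisons reuse the same 5 groups, so values of different comparisons are not independent. A gene is called here when its level differs at least 2-fold after adding 10 CPM. Among all 11106 measured genes, 22.3% were at least 2-fold higher and 21.3% at least 2-fold lower in WT luminal cells, and of the 10 members 3 were higher (Gsr, Ggt1, Nqo1) and 2 lower (Gclm, Txnrd1). The members' median log2 ratio was 0.39, against 0.01 over all measured genes. The higher members had log2 ratios of 2.68 (Gsr), 1.75 (Ggt1) and 3.28 (Nqo1), and the lower ones -1.15 (Gclm) and -2.08 (Txnrd1). Gsr and Ggt1 kept their direction in the multicell wells, at 4.17 and 2.18, as did Gclm at -1.55, whereas Txnrd1 came to -0.11 and Nqo1 turned to -2.52. Here and below, the top cell of a group is the cell with most reads of the gene in question, so it can differ between genes. With the top cell of each group left out, the single-cell ratios were 4.12 for Gsr and 4.21 for Nqo1. Gsr was higher in WT luminal cells, and Gclm lower, in both kinds of well. On the plate line with cells of both groups (11 WT luminal, 10 WT basal) the ratios were 4.32 for Gsr, 4.51 for Nqo1, -1.79 for Gclm and -2.03 for Txnrd1, and -0.06 for Ggt1, which no cell of that line detected. Over all lines with at least 5 cells, the ranges of Gsr, Nqo1, Gclm and Txnrd1 stood apart and those of Ggt1 overlapped.

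The comparison of ablated basal with WT basal cells asks what differs in basal cells a week after luminal ablation. Of all measured genes 19.8% were at least 2-fold higher and 14.9% at least 2-fold lower in ablated basal cells, and of the members 2 were higher (Ggt1, Nqo1) and 4 lower (Pir, Txnrd1, Srxn1, Hmox1). The members' median was -0.56, against 0.05 over all measured genes. Ggt1 had a log2 ratio of 3.97, a plain fold of 29.6, and 5.52 in the multicell wells. Hmox1 had -2.04 in single cells and -2.24 in multicell wells. For Txnrd1 the log2 ratio was -1.93 in single cells and 0.02 in multicell wells, for Srxn1 -3.78 and 3.74, and for Nqo1 1.53 and -1.93. With the top cell of each group left out, Srxn1 gave -2.95 and Nqo1 2.21. The Pir ratio of -1.61 became -0.05 once the single cell with most Pir reads was left out of each group, and was 0.11 in multicell wells. On the line with 9 ablated basal and 13 WT basal cells, Ggt1 had 5.19 and Txnrd1 -1.74, whereas Hmox1 turned to 3.97, at 217 CPM in ablated basal against 4.50 CPM in WT basal cells. There Nqo1 had 0.47, and Srxn1 (-0.09) and Pir (0.09) were below 1 CPM in both groups. Over lines, Ggt1 and Txnrd1 stood apart and the ranges of Nqo1, Pir, Srxn1 and Hmox1 overlapped. Ablated basal cells were also the shallower group and held 1954 CPM of fibroblast markers, against 889 CPM in WT basal cells, and the part of either in these ratios was not tested.

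In ablated luminal against WT luminal cells, 15.3% of measured genes were at least 2-fold higher and 6.61% at least 2-fold lower, and of the members 2 were higher (Pir, Gclc) and 1 lower (Nqo1). The members' median was -0.07, against 0.21 over all measured genes. Pir had a log2 ratio of 2.88 in single cells, 3.64 with the top cell of each group left out and 3.63 in multicell wells. Gclc had 1.69 in single cells and -0.02 in multicell wells. Nqo1 had -1.01 in single cells, which became -0.87 with no mitochondrial limit, and 1.77 in multicell wells. Gsr stood at 0.66 and 0.03 in the 2 kinds of well, so that this luminal gene was not past 2-fold in either. The plate line ranges of Gclc and Nqo1 stood apart, and those of Pir overlapped. The basal markers in ablated luminal cells, at 6382 CPM against 166 CPM in WT luminal cells, moved with these ratios, and their part was not tested.

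Hybrid cells are a group of the labels whose gate is not described, and their comparison with ablated basal cells shares the ablated basal libraries with the comparison above. At least 2-fold higher in ablated hybrid cells were 16% of measured genes and 4 members (Pir, Gclc, Srxn1, Hmox1), and at least 2-fold lower were 8.87% of measured genes and 1 member (Ggt1). The members' median was 0.74, against 0.14 over all measured genes. Log2 ratios were 2.94 for Pir, 1.45 for Gclc, 2.84 for Srxn1, 1.94 for Hmox1 and -1.20 for Ggt1. Gclc (4.78) and Ggt1 (-1.32) kept their direction in the multicell wells. Pir (-1.21), Srxn1 (-0.47) and Hmox1 (-0.51) did not. Over plate lines with at least 5 cells, Gclc ranged from 53.8 to 68.5 CPM on 4 ablated hybrid lines and from 2.43 to 33.3 CPM on 4 ablated basal lines. The ranges of Pir and Srxn1 also stood apart, and those of Hmox1 and Ggt1 overlapped.

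In ablated hybrid against ablated luminal cells, 6% of measured genes were at least 2-fold higher and 4.19% at least 2-fold lower, and of the members 1 was higher (Hmox1) and 2 lower (Gsr, Pir). The members' median was 0.04, against -0.01 over all measured genes. All 3 were past 2-fold in the same direction in the multicell wells. Gsr had a log2 ratio of -2.69 in single cells and -3.30 in multicell wells, Pir -2.43 and -2.84, and Hmox1 1.17 and 1.43. Gsr ranged from 33.6 to 82.3 CPM on the 4 ablated hybrid plate lines and from 85.3 to 736 CPM on the 4 ablated luminal lines, while the ranges of Pir (38.8 to 138 against 115 to 571 CPM) and Hmox1 (140 to 453 against 68.3 to 281 CPM) overlapped. On the line with 17 ablated hybrid and 4 ablated luminal cells, the ratios were -0.73 for Gsr, which is below 2-fold, -2.49 for Pir and 2.04 for Hmox1.

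**Figure D5:**
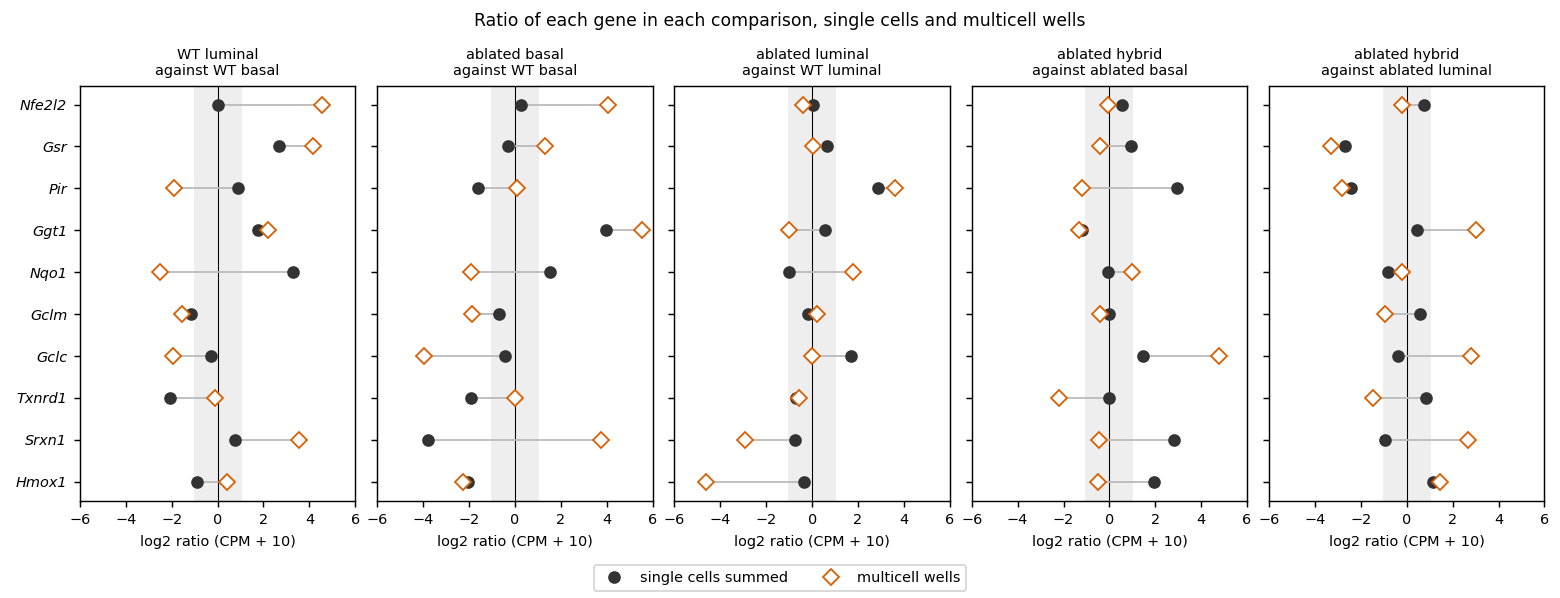
Log2 ratio after adding 10 CPM for each gene in the 5 comparisons, from single cells summed (filled circles) and from the multicell wells (open diamonds), with the range below 2-fold shaded. Gsr and Pir in ablated hybrid against ablated luminal cells lie close in both kinds of well, while Srxn1 in ablated basal against WT basal cells lies at -3.78 and 3.74.

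Other genes of the pathway were counted by the same 2-fold rule, beside the shares of all measured genes given above. Among the 12 genes of Nrf2 control, which were all measured, 2 were higher and 2 lower in WT luminal against WT basal cells, 0 and 2 in ablated basal against WT basal cells, 0 and 1 in ablated luminal against WT luminal cells, and 0 and 0 in both comparisons of hybrid cells. Sqstm1, the autophagy receptor that binds Keap1, was at 915 CPM in ablated basal against 2227 CPM in WT basal cells (log2 ratio -1.27), and at 1761 CPM in ablated luminal against 3712 CPM in WT luminal cells (-1.07). The multicell wells gave -0.85 and -1.49. Maff, a small Maf partner of Nrf2, was at 51.9 CPM in WT luminal and 304 CPM in WT basal cells, and its ratio of -2.34 came to -0.57 in multicell wells.

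NADPH supply, which feeds Gsr and Txnrd1, had 10 measured genes. In WT luminal against WT basal cells 5 were at least 2-fold higher (Pgls, Taldo1, Tkt, Me1, Nadk) and 1 lower (Nnt), with a median log2 ratio of 1.47. Taldo1, a transaldolase of the pentose phosphate pathway, was at 441 CPM in WT luminal and 20.5 CPM in WT basal cells and was detected in 86.05% and 6.82% of them. In ablated basal against WT basal cells 5 were higher and 1 lower, with a median of 1.02, and Taldo1 stood at 108 against 20.5 CPM. G6pdx, the entry enzyme of that pathway, was at 107 CPM in ablated hybrid against 31.2 CPM in ablated basal and 234 CPM in ablated luminal cells. Idh1, the cytosolic isocitrate dehydrogenase, was at 299 CPM in ablated luminal against 63.3 CPM in WT luminal cells and at 53.9 CPM in ablated hybrid cells. In multicell wells the Taldo1 ratios were 4.87 and 4.39, and the G6pdx ratio against ablated basal cells was -1.58. The counts were 3 higher and 1 lower in ablated luminal against WT luminal, 4 and 1 in ablated hybrid against ablated basal and 0 and 2 in ablated hybrid against ablated luminal cells.

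Of the 16 measured genes of glutathione synthesis and use, 2 were higher and 2 lower in WT luminal against WT basal cells, 2 and 2 in ablated basal against WT basal, 5 and 3 in ablated luminal against WT luminal, 3 and 2 in ablated hybrid against ablated basal and 0 and 4 in ablated hybrid against ablated luminal cells. Gpx3, the secreted glutathione peroxidase, was at 182 CPM in ablated hybrid, 2832 CPM in ablated luminal, 30.7 CPM in ablated basal, 4328 CPM in WT luminal and 115 CPM in WT basal cells. It was detected in 32.9% of ablated luminal and 39.5% of WT luminal cells. The multicell wells held 99.4 CPM (ablated hybrid), 267 CPM (ablated luminal), 20.2 CPM (ablated basal), 1472 CPM (WT luminal) and 362 CPM (WT basal). There the WT basal well stood above the ablated luminal well. Gss, which completes glutathione synthesis, was at 115 CPM in ablated luminal against 44.5 CPM in WT luminal cells and at 75.8 CPM in ablated basal against 31.9 CPM in WT basal cells. Its log2 ratios of 1.20 and 1.03 compared with 1.21 and 2.44 in the multicell wells.

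Of 15 measured glutathione transferases, which couple glutathione to electrophiles, 4 were higher and 3 lower in WT luminal against WT basal cells and 4 and 3 in ablated basal against WT basal cells. Gsta4 was at 191 CPM in WT luminal and 0.650 CPM in WT basal cells, with a multicell log2 ratio of 3.11. Counts were 3 and 3 in ablated luminal against WT luminal, 3 and 1 in ablated hybrid against ablated basal and 1 and 3 in ablated hybrid against ablated luminal cells. Gsto1, an omega-class transferase, was at 419 CPM in ablated luminal against 76.9 CPM in WT luminal cells and at 177 CPM in ablated hybrid cells. Its multicell ratios were 1.24 in ablated luminal against WT luminal and -0.23 in ablated hybrid against ablated luminal cells.

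In the thioredoxin and peroxiredoxin list, with 16 measured genes, 6 were higher and 1 lower in WT luminal against WT basal cells, 4 and 3 in ablated basal against WT basal, 2 and 1 in ablated luminal against WT luminal, 4 and 1 in ablated hybrid against ablated basal and 0 and 0 in ablated hybrid against ablated luminal cells. Prdx3, the mitochondrial peroxiredoxin, was at 254 CPM in WT luminal and 51.9 CPM in WT basal cells. Txnip, an inhibitor of thioredoxin, was at 248 CPM in ablated luminal against 1957 CPM in WT luminal cells, a log2 ratio of -2.93 that was -0.87 in the multicell wells.

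Among 9 measured other Nrf2 target enzymes, Osgin1 was the one past 2-fold in 4 of the 5 comparisons. It stood at 298 CPM in ablated hybrid, 126 CPM in ablated luminal, 82.3 CPM in ablated basal, 209 CPM in WT luminal and 457.5 CPM in WT basal cells. Its multicell log2 ratio was 0.84 in ablated basal against WT basal cells, where single cells gave -2.34, and -0.07 in ablated hybrid against ablated basal cells, where they gave 1.74. The list's counts, higher first, were 2 and 3 in WT luminal against WT basal, 2 and 2 in ablated basal against WT basal, 1 and 2 in ablated luminal against WT luminal, 3 and 1 in ablated hybrid against ablated basal and 1 and 1 in ablated hybrid against ablated luminal cells. Among 9 genes of heme and iron handling, 3 were higher and 2 lower in WT luminal against WT basal, 1 and 1 in ablated basal against WT basal, 1 and 0 in ablated luminal against WT luminal and 0 and 0 in both comparisons of hybrid cells. Fth1, the ferritin heavy chain, was at 1981 CPM in WT luminal and 4644 CPM in WT basal cells. Of 3 measured genes of superoxide and peroxide removal, Cat, catalase, was at 223 CPM in WT luminal against 62.9 CPM in WT basal cells and at 75.3 CPM in ablated luminal cells, and these were the only single-cell ratios of that list past 2-fold over the 5 comparisons. The Cat ratio in ablated luminal against WT luminal cells was -1.45 in single cells and turned to 2.54 in multicell wells.

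Cells differed in how many of the 10 members they showed. The mean number detected per cell was 3.84 ± 2.12 in 85 ablated hybrid, 3.59 ± 1.88 in 76 ablated luminal, 1.54 ± 1.21 in 71 ablated basal, 2.47 ± 1.74 in 43 WT luminal and 1.45 ± 1.19 in 44 WT basal cells (SD over cells of 1 sample each). At least 5 members were detected in 38.8% of ablated hybrid, 32.9% of ablated luminal, 0% of ablated basal, 13.95% of WT luminal cells and 0% of WT basal cells. With a limit of 3 cells, a count of 0 allows up to 4.23% of the ablated basal and up to 6.82% of the WT basal cells. The median number of all genes detected in a thinned cell moved with these values, at 2989, 2838, 1618, 1902 and 1216.5 in the same groups, and its part in them was not tested. All 10 members had a larger share of detecting cells in ablated hybrid than in ablated basal cells, as did 86.4% of all measured genes. In WT luminal against WT basal cells 9 members and 72.9% of measured genes did. In ablated basal against WT basal cells 4 members had a larger share and 6 a smaller one, while 63.8% of measured genes had a larger share. A larger share was found for 8 members and 76.9% of measured genes in ablated luminal against WT luminal cells. In ablated hybrid against ablated luminal cells it was found for 6 members and 52.04% of measured genes.

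The likeness of genes was described by Pearson's r of log2(CPM + 10) over 319 kept cells, among 4593 genes with at least 50 CPM and detection in 25% of cells in some group. These cells share a plate, their depth and the group differences described above, so r describes these cells only. Among the members, Pir and Gsr were the most alike (r = 0.41), followed by Hmox1 and Txnrd1 (0.30). The Pir and Gsr value was 0.39 within ablated luminal and 0.18 within ablated hybrid cells, and 0.12 or less within the other groups. Hmox1 and Txnrd1 kept 0.18 to 0.42 within every group.

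Gsr was most like Wfdc2 and Ly6d (r = 0.60 for both), and Wfdc2 stood at 220 CPM in ablated hybrid, 1431 CPM in ablated luminal, 18.5 CPM in ablated basal, 1400.4 CPM in WT luminal and 20.4 CPM in WT basal cells. Within groups the r of Gsr and Wfdc2 was 0.21 in ablated hybrid, 0.56 in ablated luminal, 0.43 in ablated basal, 0.43 in WT luminal and 0.05 in WT basal cells. Ggt1 was most like Cnn1 (0.39) and Myl9 (0.35), genes of the contractile apparatus, and Ggt1 and Cnn1 had 0.38 within ablated hybrid, 0.13 within ablated luminal, 0.34 within ablated basal, -0.06 within WT luminal and 0.26 within WT basal cells. Pir was most like R3hdml (0.49), Nqo1 like Cat (0.32), Gclc like Areg (0.35), Srxn1 like Aqp3 (0.38) and Hmox1 like Pqlc1 (0.36) and Osgin1 (0.35). The most alike genes of Nfe2l2 (Pnpla2, 0.31), Gclm (Prkar1a, 0.29) and Txnrd1 (Fosl1, 0.31) had low values of r.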

How the data were processed

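Values in the deposited table are whole-number read counts, not normalized by the authors. Tools named in the submitters' processing notes are HTSeq 0.6.0, STAR 2.5.2b, cutadapt 1.13 and Seurat, on GRCm38, with no roles. An annotation version is not given. Of 49585 gene rows, 49326 matched GENCODE M21 by the stable part of the identifier, which gave symbols and coordinates. The 92 spike-in rows held 11 reads in all wells and were left out.

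Of 374 single-cell wells 319 were kept and 55 left out. Doublets were neither called nor removed. Kept cells of a group held 46165993 to 95990962 reads together. Measured genes averaged 5 CPM or more across groups. Thinning used a fixed seed. The ratio of summed reads and the thinning were tested on simulated data, with a spread between cells that was not fitted to these data. Named genes were the 10 members, up to 2 genes per list and comparison with the largest ratio among those reaching 50 CPM in the higher group, and the 2 most alike genes per member; Wfdc2's levels and the names given with counts were added after their values were seen. The members and lists were chosen with earlier results of these data known.

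Alternatives changed the read minimum (50000 or 200000), mitochondrial limit, gene minimum (2000), weight of cells, scaling (median-of-ratios, or TMM from edgeR 4.0.16), added CPM (1), abundance filter, top cell, kind of well and detection rule. Subtraction of negative control reads and values on the plate line shared by both groups were added after seeing the data. Computation used Python 3.11.15 and R 4.3.3. A few items are not reported here.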

Additional observations from a re-analysis of the deposited data

Results flagged for a closer look

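In 4 of the 10 genes, 1 of the 5 negative control wells was picked out by an outlier rule. The rule sets the gap to the nearest well against the full range. One well held 11 reads of Srxn1, where the others held 0 to 3. One well held 3 reads of Nfe2l2, where each of the others held 1. Single wells also held 2 reads of Pir and 1 read of Gclc, where the others held 0. Where the other 4 wells hold equal counts, the rule picks out any well that differs, even by 1 read. Whole reads this low make such ties frequent, so its nominal rate of 1 in 20 does not hold here.

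Over all kept single cells, the ratios of Pir and Nqo1 were past 2-fold in opposite directions in the 2 lineages, but not under every setting. The log2 ratio of Pir was -1.61 in ablated basal against WT basal cells and 2.88 in ablated luminal against WT luminal cells, a difference of -4.50. The log2 ratio of Nqo1 was 1.53 in basal and -1.01 in luminal cells, a difference of 2.53. The basal Pir ratio was -0.05 without the top cell of each group, and 1 WT basal cell held 97.4% of that group's Pir reads. The Nqo1 ratio was 0.68 in basal cells at equal weight per cell and -0.87 in luminal cells with no mitochondrial limit. Neither difference was tested, since each group counts as 1 sample, and in the multicell wells the same ratios were 0.11 and 3.63 for Pir and -1.93 and 1.77 for Nqo1.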

How the results depend on the processing

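Of the 50 ratios (10 genes in 5 comparisons) 22 were past 2-fold. Under each of the 11 alternatives that use single cells of all plate lines, all 22 kept their direction and 20 to 22 stayed past 2-fold. Among these, dropping the abundance filter leaves each ratio as it was, and adding 1 in place of 10 CPM can only widen a ratio. Neither alternative could have turned a called ratio or brought it below 2-fold. The multicell wells kept the direction of 12, and the other 10 had the opposite sign, some of them with almost no difference. There Nqo1 gave -2.52 in WT luminal against WT basal, -1.93 in ablated basal against WT basal and 1.77 in ablated luminal against WT luminal cells. Pir gave 0.11, Txnrd1 0.0222 and Srxn1 3.74 in ablated basal against WT basal cells, and Gclc -0.0176 in ablated luminal against WT luminal cells. In ablated hybrid against ablated basal cells Pir gave -1.21, Srxn1 -0.47 and Hmox1 -0.51. The cause was not tested, and a multicell well is a single library of unstated cell number.

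Multicell wells put 8 members past 2-fold in WT luminal against WT basal (5 in single cells), 5 in ablated luminal against WT luminal (3) and 7 in ablated hybrid against ablated luminal cells (3). Median-of-ratios scaling also gave 5 in ablated luminal against WT luminal cells, adding Txnrd1 (-1.01) and Srxn1 (-1.08). It moved the median of all measured genes there to -0.01, against 0.21, and in ablated hybrid against ablated basal cells to -0.04, against 0.14. The share of all measured genes past 2-fold was not computed for the multicell wells or this scaling. These member counts therefore have no background share beside them.

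For each gene, the cell with most reads of that gene was left out of each group. This took Pir in ablated basal against WT basal cells to -0.05. It put Pir (1.45) and Hmox1 (-1.68) past 2-fold in WT luminal against WT basal cells. Gsr also passed 2-fold in ablated basal against WT basal (1.06) and ablated hybrid against ablated basal cells (1.18). Leaving out these cells also moved called ratios by over 1.5 times before the log2 was taken. Their log2 ratios became 4.12 for Gsr and 4.21 for Nqo1 in WT luminal against WT basal cells. They became 2.21 for Nqo1 and -2.95 for Srxn1 in ablated basal against WT basal, and 3.64 for Pir in ablated luminal against WT luminal cells. Equal weight per cell took Nqo1 in ablated basal against WT basal cells to 0.68, Txnrd1 there to -1.24, Nqo1 in WT luminal against WT basal cells to 2.49 and Ggt1 in ablated hybrid against ablated basal cells to -0.85. With 1 CPM added, Pir and Srxn1 had -4.08 and -5.30 in ablated basal against WT basal cells and 5.71 and 4.28 in ablated hybrid against ablated basal cells. On the single plate line with cells of both groups, chosen after seeing the data and holding 4 to 17 cells a group, Ggt1 turned to -0.062 in WT luminal against WT basal, and Hmox1 to 3.97 and Pir to 0.095 in ablated basal against WT basal cells. There 7 members were past 2-fold in ablated hybrid against ablated luminal cells, Gsr (-0.73) not among them. The share of all measured genes past 2-fold was not computed on that line. Counting 1 read as detection moved 36 of 50 shares outside their interval. Detection at 20 reads moved 20, no thinning moved 25, and a read minimum of 200000 moved 0. No paired analysis was possible because the wells carry no replicate number shared between groups and no test was run.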
